A study of Mus musculus with 12 samples.

Results

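Transcripts of 32 genes of nucleotide synthesis and one-carbon metabolism were followed in mouse natural killer (NK) cells, cytotoxic lymphocytes of the innate immune system. The members were taken from the deposited expression table by gene symbol and fell into 13 genes of purine synthesis, 5 of pyrimidine synthesis, 6 of the folate one-carbon cycle, 4 of nucleotide salvage and 4 nucleotide kinases. All 32 were found among the 55487 features of the table, and all 32 were among the 12364 genes tested, those whose log2 CPM (counts scaled to the library total, CPM) exceeded 0 in 4 or more samples. Aldh1l2 met that minimum only through its level in the YFP+ group, so counts are also given without it. The 12 samples formed 3 groups of 4: unstimulated cells, and cells given 6 h of anti-NK1.1, an antibody that engages an activating receptor of NK cells, that were either negative (YFP-) or positive (YFP+) for a yellow fluorescent protein reporter of interferon gamma. Every group, the unstimulated one included, came from strain B6.129S4-Ifngtm3.1Lky/J with the genotype mut/mut, so every group carried the reporter allele, and all were primed with interleukin 15 (IL-15). The titles add HD to IL-15, which the labels do not explain, and no age is given. Samples are named f2, m2, m3 and m4 in each group, and values below are listed in that order. Nothing in the labels says that samples came from separate animals, so p-values measure the spread between these samples only.

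Cells make nucleotides either from small precursors or by salvage of bases and nucleosides. The purine ring is built step by step on phosphoribosyl pyrophosphate and takes carbons from folate, whereas the pyrimidine ring is closed first and joined to phosphoribosyl pyrophosphate afterwards. The one-carbon units come largely from serine, which Shmt2, Mthfd2 and Mthfd1l process in mitochondria and Shmt1 and Mthfd1 in the cytosol. Lymphocytes that are activated are known to raise these pathways for RNA and DNA synthesis.

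Library totals ran from 32.1 to 54.2 M reads, so 3 reads corresponded to 0.0553 to 0.0933 CPM. Features of ribosomal RNA and similar features took 27.4 to 35.3% of unstimulated, 15.9 to 30.3% of YFP- and 13.7 to 29.8% of YFP+ libraries. All 10 NK cell markers were above 3 reads in every library, and their summed level was 11762 to 14626 CPM without stimulation, 9016 to 12362 among YFP- and 7667 to 13169 among YFP+ libraries. Gzma and Prf1 carried most of that sum. Compared with unstimulated libraries, Ncr1, Klrd1, Eomes, Itga2 and Gzma were lower in YFP+ without overlap. Tbx21 and Klrk1 were higher there without overlap, and Il2rb and Prf1 overlapped. Klrb1c, which encodes NK1.1, was at 290.2 to 327 CPM without stimulation, 57.6 to 86.6 among YFP- and 3.7 to 8.97 among YFP+ libraries. The 10 T cell markers summed to 513 to 582, 742 to 846 and 836 to 944 CPM in the same order, carried mostly by Trbc1 and Trbc2. Trac was at 6.83 to 8.47, 27.6 to 41.9 and 40.4 to 54.5 CPM, Cd3g at most 79.4, 41.7 and 31.9 CPM, and Cd3d at most 25.9, 20.6 and 13.8 CPM. Cd4, Cd8a and Cd8b1 stayed at or below 0.193 CPM and Cd3e and Cd5 at or below 1.49 CPM. Sums of 7 B cell markers were at most 4.38 CPM and those of 8 erythroid and platelet markers at most 0.678 CPM. The 10 myeloid markers summed to 38.4 to 48.1, 31.5 to 49.2 and 20.4 to 22.4 CPM, lowest in YFP+ without overlap, and Itgax was the only 1 of them above 2 CPM. The part of these markers in the results was not tested. In bulk samples, fewer cells expressing a gene and less RNA per cell cannot be told apart.

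Among the members, 2 libraries stood apart from their groups. The unstimulated m4 library was the lowest of its group for 26 of the 32 members, at a median difference of -0.40 log2 from the other 3, and the lowest for 39.8% of all genes. The YFP+ m3 library was the lowest of its group for 20 members and the highest for 7, at a median difference of -0.55, and the lowest for 40.8% of all genes. In the YFP- group m3 was the lowest for 25 members, but it was also the lowest for 55.0% of all genes and its median difference, -0.24, equalled that of all genes. These 3 libraries also had the highest share of rRNA-like features in their groups, 35.3% in unstimulated m4, 29.8% in YFP+ m3 and 30.3% in YFP- m3, whose part in the results was not tested. Counts are therefore also given without unstimulated m4 and YFP+ m3. These 2 libraries were chosen from the members' own values and not beforehand. Fits without them show how far results rest on them, and are no independent support.

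Most members were higher after stimulation, whichever reporter fraction was compared with unstimulated cells. In YFP- against unstimulated samples 18 of the 32 members rose and 3 fell, at a median log2 difference of 0.61 over the members and 0.14 over all genes, where 51.1% of all genes were called, 30.2% higher and 20.9% lower (limma, Benjamini-Hochberg adjusted p under 0.05). In YFP+ against unstimulated samples 21 rose and 4 fell, at a median of 0.80 against -0.03 over all genes, where 60.8% of all genes were called, 27.5% higher and 33.3% lower. Between the stimulated fractions 4 were higher and 1 was lower in YFP+, at a median of 0.01 against -0.19, where 21.8% of all genes were called, 3.28% higher and 18.5% lower. Without Aldh1l2 the counts were 17 and 3, 20 and 4, and 3 and 1. Without unstimulated m4 and YFP+ m3 they were 17 and 4, 20 and 5, and 4 and 1, with medians of 0.45, 0.74 and 0.17. With 1 label left out, members higher against unstimulated samples numbered 14 to 21 in YFP- and 16 to 21 in YFP+. In those fits 21.9 to 32.6% and 22.8 to 29.5% of all genes were called higher. Counted by groups that did not overlap, 16 members were higher and 3 lower in YFP- than in unstimulated samples, where this held for 30.9% and 21.7% of all genes. For YFP+ against unstimulated samples these were 13 and 4 members, against 24% and 30.8% of all genes, and for YFP+ against YFP- 4 and 1, against 4.31% and 17.8%. The 3 comparisons share samples in pairs, so they are not independent of each other.

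**Figure D1:**
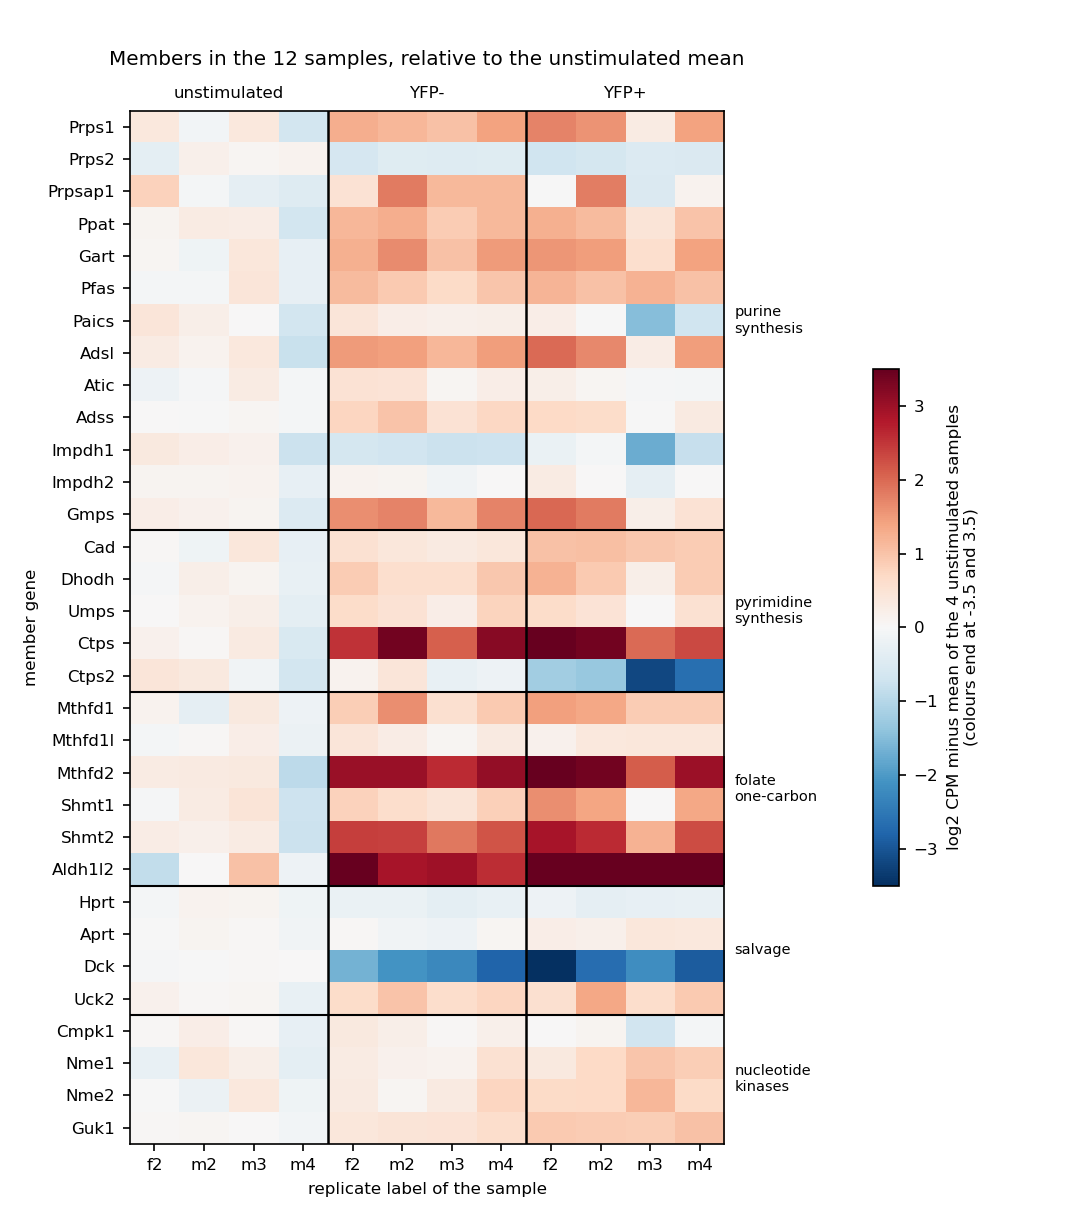
Each row is 1 member and each column 1 sample, and the colour is the log2 CPM minus the mean of the 4 unstimulated samples, red for higher and blue for lower. Mthfd2, Shmt2, Ctps and Aldh1l2 are red in all 8 stimulated samples, Dck is blue in all 8, and Ctps2 is blue in the 4 YFP+ samples.

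The calls formed 8 patterns. The share of all genes with each pattern was not counted, so the numbers of members do not show which patterns are particular to them. Aldh1l2, Cad and Guk1 rose in both fractions and were higher in YFP+ than in YFP-. A further 13 members rose in both fractions and were not called between them: Adsl, Adss, Ctps, Dhodh, Gart, Gmps, Mthfd1, Mthfd2, Pfas, Ppat, Prps1, Shmt2 and Uck2. Mthfd1l, Nme1, Nme2 and Shmt1 were called higher only in YFP+ against unstimulated samples, and Prpsap1 and Umps only in YFP- against unstimulated samples. Aprt was higher in YFP+ than in either other group. Ctps2 was lower in YFP+ than in either other group, whereas Dck, Hprt and Prps2 fell in both fractions. Atic, Cmpk1, Impdh1, Impdh2 and Paics passed in no comparison. Being called in 1 comparison and not in another does not show that the differences themselves differ, which only the direct comparison of YFP+ with YFP- tests.

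**Figure D2:**
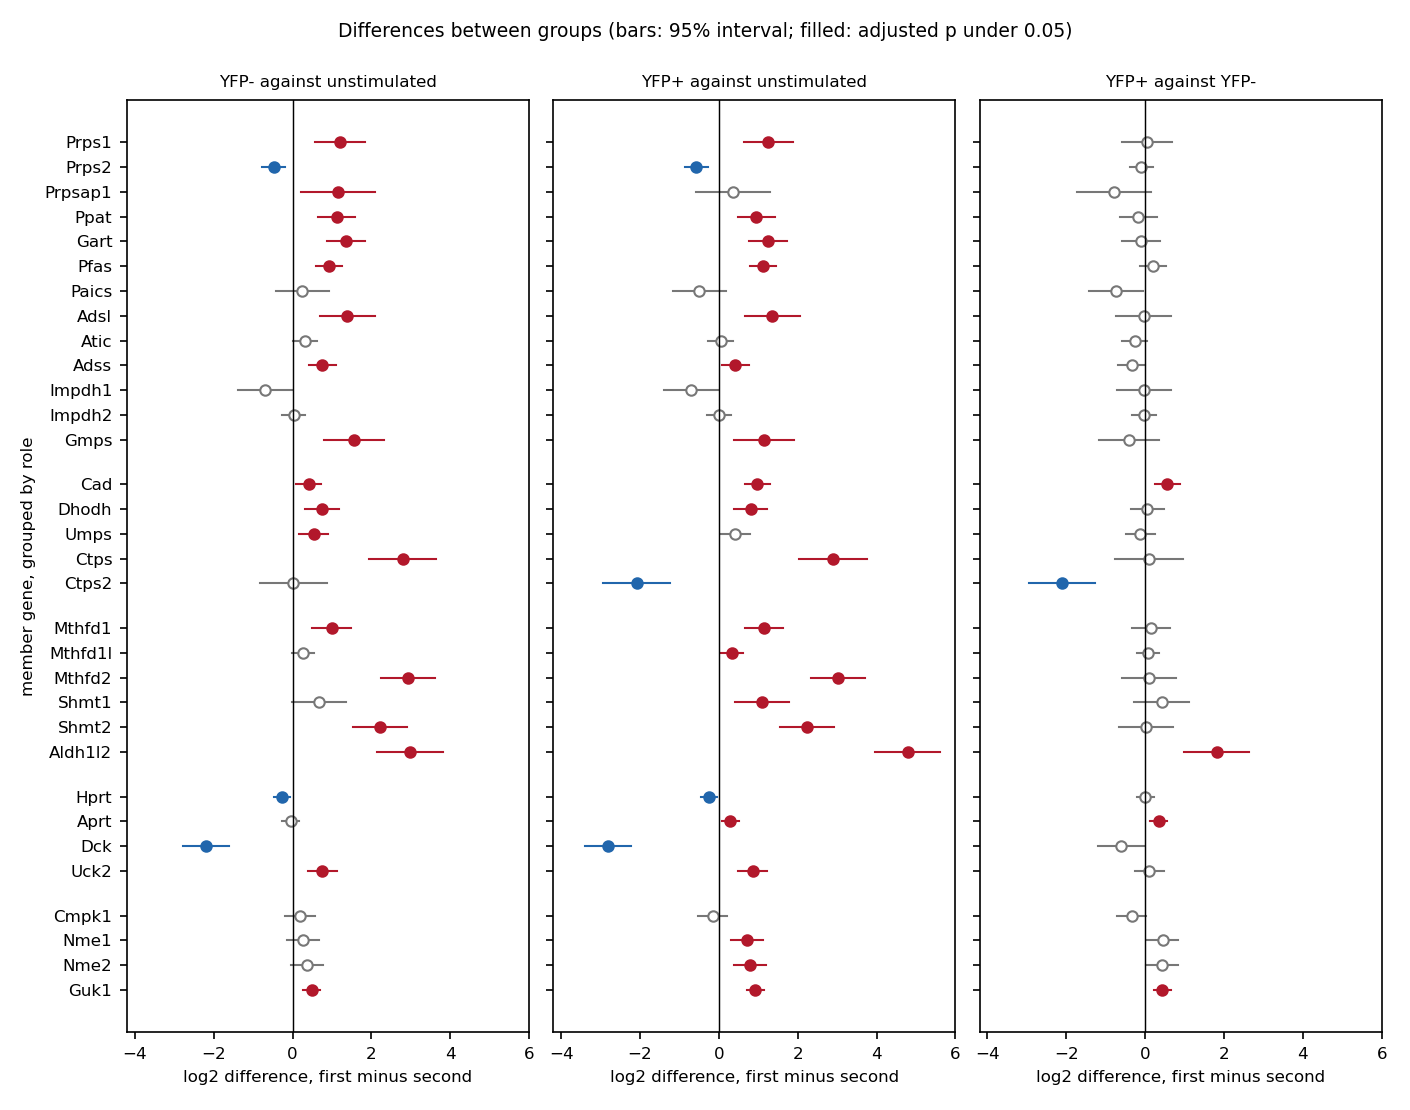
Points are log2 differences (horizontal axis, first group minus second) of the 32 members, which are grouped by role on the vertical axis, in the 3 comparisons, bars are 95% intervals, and filled points have an adjusted p under 0.05. The one-carbon genes lie at 0.26 or above in both comparisons with unstimulated cells, and all but 5 intervals in the right panel belong to open points.

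Promoters of the members, whichever way they moved, were described next. RefSeq promoter windows of 300 bases (250 before to 50 after an annotated start, GRCm38.p6) were matched for 29 of the 32 members; Aldh1l2, Pfas and Dhodh had none. Both strands were searched for 4 motifs. The palindromic site of the factor NRF1, given by the capitals in Ctps and Shmt2 below, was in the windows of 2 of the 29 members (6.90%), Ctps and Shmt2, against 1.07% of 27025 genes. The E-box CACGTG, which Myc and related factors bind, was in those of 4 (13.8%), Atic, Impdh2, Nme1 and Paics, against 8.09%. The amino acid response motif TGATGNAA was in that of Prps1 (3.45%), against 4.51%, and CCAAT was in 11 (37.9%), Mthfd2 included, against 41.1%. Stretches of 100 bases are shown for Ctps and Shmt2, which rose strongly and share the NRF1 motif, for Prps1, which rose, and for Nme1 (its downstream annotated start), with the motif in capitals and each read 5′ to 3′ on the gene's strand.
Ctps (chr4:120570292-120570391, minus strand): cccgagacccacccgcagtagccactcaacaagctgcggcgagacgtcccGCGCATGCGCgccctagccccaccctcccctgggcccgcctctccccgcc
Shmt2 (chr10:127522445-127522544, minus strand): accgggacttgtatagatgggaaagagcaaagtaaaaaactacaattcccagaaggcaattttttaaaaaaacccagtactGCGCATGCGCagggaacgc
Prps1 (chrX:140456381-140456480, plus strand): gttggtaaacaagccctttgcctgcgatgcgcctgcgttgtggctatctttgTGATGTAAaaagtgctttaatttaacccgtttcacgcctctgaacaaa
Nme1 (chr11:93968026-93968125, minus strand): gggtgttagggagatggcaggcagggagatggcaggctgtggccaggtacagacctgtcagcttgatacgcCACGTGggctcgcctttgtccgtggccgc
A match is a description of these letters, not evidence of binding. The E-box was in the windows of 3 of the 5 members that passed in no comparison. That of Paics lies in annotated exon of its neighbour Ppat. Mthfd2, with the largest rises of the members other than Aldh1l2, held none of the NRF1, E-box and amino acid response motifs. The part of any of these motifs in the differences was not tested.

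Among the folate one-carbon genes, the mitochondrial Mthfd2 and Shmt2 had large rises and the others smaller ones, apart from the sparse Aldh1l2. Leaving out Aldh1l2, 3 of the other 5 rose in YFP- and 5 of 5 in YFP+ against unstimulated samples, with median log2 differences of 0.99 and 1.14. As shares these were 60% and 100%, beside 30.2% and 27.5% of all genes. Mthfd2 (ENSMUSG00000005667; GRCm38 chr6:83305691-83325908, minus strand), the mitochondrial methylene-tetrahydrofolate dehydrogenase and cyclohydrolase, was at 111, 114, 117 and 48.4 CPM in unstimulated samples. Its levels were 747, 746, 562 and 780.1 CPM in YFP- and 1141, 950.4, 403 and 733 CPM in YFP+ samples. All 8 stimulated samples were far above the 4 unstimulated ones, YFP+ m3 was the lowest of the 8, and the 2 stimulated fractions overlapped. Mthfd2 thus rose by 2.93 ± 0.32 log2 (SE; 7.63-fold; limma adjusted p = 7.74e-06) in YFP- and by 3.03 ± 0.32 (8.16-fold; limma adjusted p = 2.39e-06) in YFP+. Between YFP+ and YFP- the difference was 0.10 (95% interval -0.59 to 0.79).

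Shmt2 (ENSMUSG00000025403; GRCm38 chr10:127517123-127522444, minus strand), the mitochondrial serine hydroxymethyltransferase that moves a carbon from serine to folate, moved much as Mthfd2 did. It was at 187, 176, 191 and 92.9 CPM without stimulation, against 832, 823, 561 and 721 CPM in the YFP- and 1138, 955, 359 and 757 CPM in the YFP+ fraction. Again m4 was the lowest unstimulated sample and m3 the lowest of each stimulated fraction, with no overlap between stimulated and unstimulated samples. The rises were 2.22 ± 0.32 and 2.24 ± 0.32 log2 (SE; 4.67- and 4.74-fold; limma adjusted p = 7.48e-05 and 3.61e-05). The difference between YFP+ and YFP- was 0.02 (95% interval -0.66 to 0.71).

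Aldh1l2 (ENSMUSG00000020256; GRCm38 chr10:83487450-83534140, minus strand), the mitochondrial enzyme that oxidises formyl-tetrahydrofolate and yields NADPH, was nearly silent before stimulation. It held 2, 4, 9 and 3 reads in the unstimulated libraries, 58, 42, 39 and 34 in the YFP- libraries and 195, 188, 104 and 89 in the YFP+ libraries. These correspond to 0.119 ± 0.0747, 0.938 ± 0.263 and 3.27 ± 0.565 CPM (mean ± SD, n = 4). No 2 groups overlapped, and the order was the same under all 4 labels. The log2 differences were 2.98 for YFP- and 4.79 for YFP+ against unstimulated samples, and 1.81 ± 0.38 (SE) for YFP+ against YFP-. Since the filter kept this gene through the group where it is high, its test is given from the fit of all 55487 features with no filter (limma adjusted p = 0.000475, 1.07e-05 and 0.0258 in the same order). Few reads make their size depend on the pseudocount: with 1 CPM added they were 0.79, 1.93 and 1.14. Of its exon bases, 14.1% overlap D10Wsu102e on the opposite strand, which averaged 16.3 CPM, and whether counting used strand is not given in the sources used here.

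The cytosolic one-carbon genes moved less. Mthfd1, the cytosolic trifunctional folate enzyme, rose from 15.1, 11.0, 17.5 and 12.3 CPM to 25.2, 42.2, 20.3 and 25.8 in YFP- and 37.0, 35.5, 25.3 and 25.5 in YFP+ samples, by 0.99 and 1.14 log2. All 8 stimulated samples lay above the 4 unstimulated ones. Shmt1, the cytosolic serine hydroxymethyltransferase, was at 16.6, 20.7, 23.3 and 10.3 CPM without stimulation, against 29.6, 26.1, 22.9 and 30.2 in the YFP- and 52.3, 43.7, 17.2 and 43.3 in the YFP+ fraction. In YFP+ its m3 sample lay among the unstimulated values while the other 3 exceeded all 8 remaining samples. Shmt1 rose by 1.09 ± 0.32 log2 in YFP+ (SE; limma adjusted p = 0.00892). Its differences of 0.68 in YFP- (limma adjusted p = 0.0925) and 0.42 between fractions (limma adjusted p = 0.384) were not called.

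Mthfd1l, the mitochondrial formyl-tetrahydrofolate synthetase, had the smallest differences of the 6 from unstimulated samples. Its levels were 27.6, 29.7, 33.8 and 24.9 CPM without stimulation, against 38.3, 34.5, 30.1 and 35.8 in the YFP- and 31.8, 37.4, 38.1 and 37.6 in the YFP+ fraction, and the groups overlapped. It was called in YFP+ at 0.33 log2 (limma adjusted p = 0.0431) and missed the threshold in YFP- at 0.26 (limma adjusted p = 0.109). The weaker one-carbon calls depended on single labels. Mthfd1l in YFP+ was lost without f2, m2 or m4 (limma adjusted p = 0.0654, 0.143 and 0.24) and gained in YFP- without m3 (0.0284). Without rRNA-like features in the totals the YFP+ difference was 0.14 (limma adjusted p = 0.385). Shmt1 in YFP+ was lost without f2 or m4 (limma adjusted p = 0.0701 and 0.0965) and gained in YFP- without m3 (0.00762). Without unstimulated m4 and YFP+ m3, Shmt1 was called in YFP- at 0.44 and between fractions at 0.77 log2 (limma adjusted p = 0.0349 and 0.00438), and Mthfd1l in YFP+ was not (0.187). Both libraries were the lowest of their groups for Shmt1, so its calls there are no independent support.

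**Figure D3:**
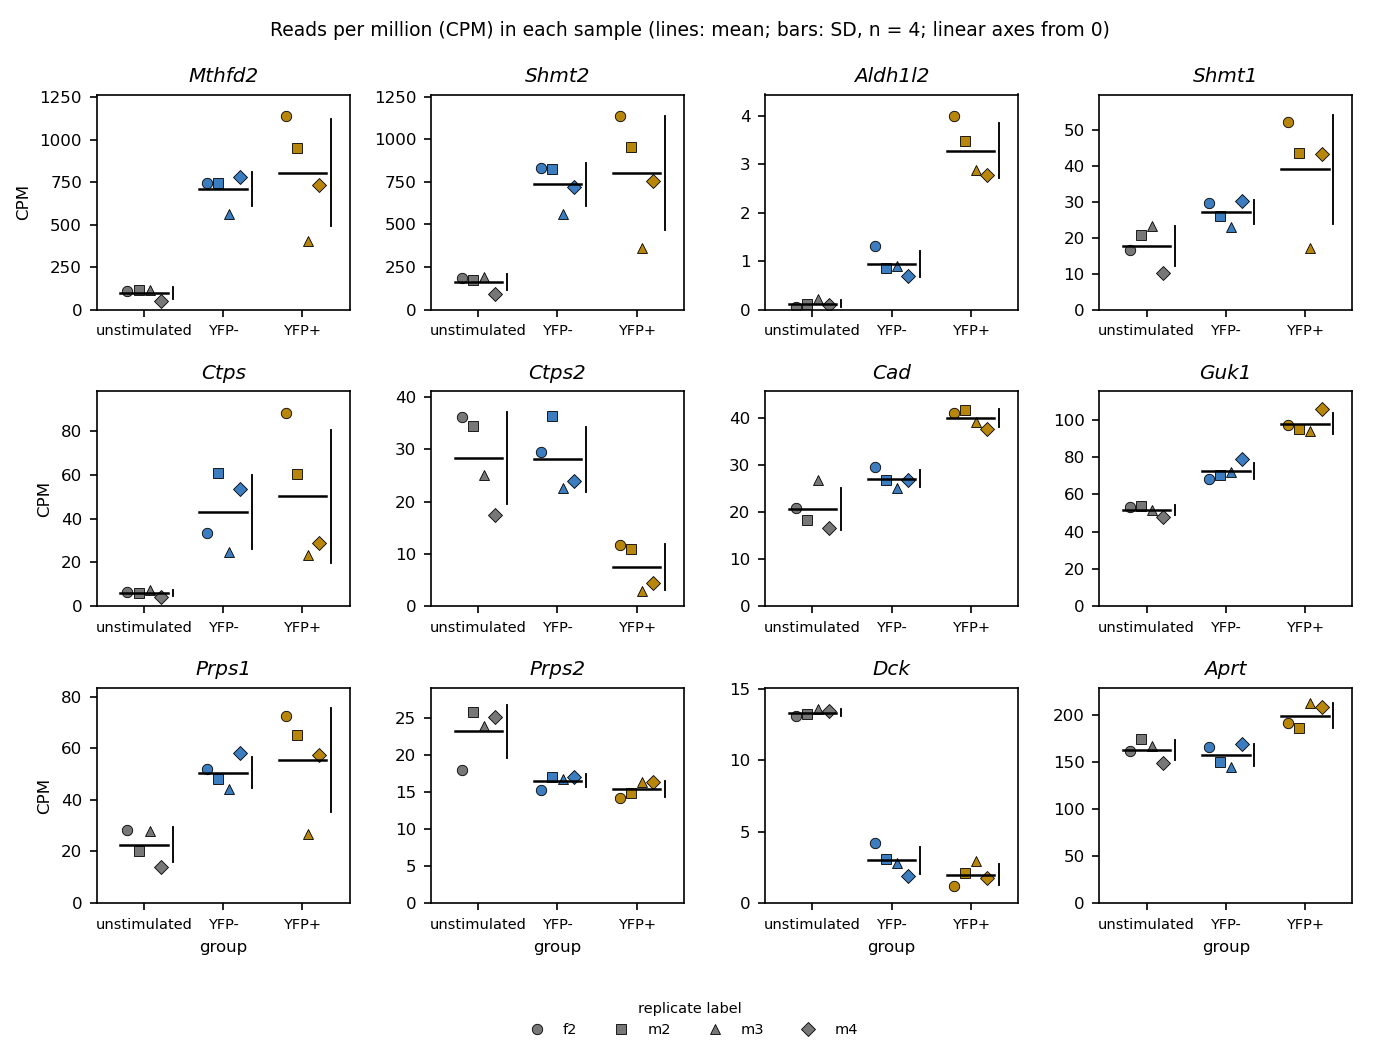
Each panel plots the CPM of 1 member (vertical axis, linear from 0) in the 4 samples of each group (horizontal axis), with a symbol for each replicate label, a line for the mean and a bar for the SD. Mthfd2, Shmt2 and Ctps rise in both stimulated fractions, Aldh1l2, Cad, Guk1 and Aprt are highest in YFP+, Ctps2 is lowest in YFP+, and Dck and Prps2 fall in both.

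Of the 13 purine synthesis genes, 8 rose and 1 fell in YFP-, and 7 rose and 1 fell in YFP+, against unstimulated samples, while none was called between the fractions. The rises were 61.5% and 53.8% of these genes, beside 30.2% and 27.5% of all genes. The falls were 7.69% in each, beside 20.9% and 33.3%. Between fractions, 21.8% of all genes were called. The median log2 difference of the 13 was 0.92 in YFP-, 0.41 in YFP+ and -0.10 between fractions. With the replicate label as a block in the fit, Paics was called lower between fractions (-0.74; limma adjusted p = 0.0413). At the entry to the pathway, Prps1 (ENSMUSG00000031432; GRCm38 chrX:140456613-140476140, plus strand), 1 of the phosphoribosyl pyrophosphate synthetases, was at 28.3, 20.2, 27.9 and 13.9 CPM without stimulation, against 52.0, 48.2, 44.2 and 58.0 in the YFP- and 72.5, 65.0, 26.7 and 57.6 in the YFP+ fraction. Its rises were 1.21 and 1.26 log2 (limma adjusted p = 0.00362 and 0.00206), with YFP+ m3 alone among the stimulated samples inside the unstimulated range. Its paralog Prps2 fell, from 17.9, 25.8, 23.9 and 25.1 CPM to 15.2, 17.1, 16.8 and 17.1 in YFP- and 14.2, 14.9, 16.3 and 16.3 in YFP+ samples. All 8 stimulated samples of Prps2 were below the 4 unstimulated ones, by 0.47 and 0.57 log2 on average (limma adjusted p = 0.0103 and 0.0023). Of the 50-base words of Prps1, 9.93% also occur in Prps1l3, so some of its reads could be split.

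Ppat, Gart, Pfas and Adsl rose in both fractions. Ppat, the amidotransferase of the committed step, went from 16.5 ± 4.33 to 34.8 ± 3.76 CPM in YFP- and 31.3 ± 6.80 in YFP+ (mean ± SD, n = 4), and neither stimulated fraction overlapped the unstimulated samples. Gart, a trifunctional enzyme that includes the first folate-linked step, was at 20.5, 17.6, 25.9 and 16.1 CPM without stimulation, against 47.0, 62.0, 40.2 and 55.0 in the YFP- and 57.8, 53.7, 29.5 and 52.5 in the YFP+ fraction. Its rises of 1.36 and 1.25 log2 left no overlap with unstimulated samples, though YFP+ m3 came closest. Pfas, which makes the amidine that precedes ring closure, rose by 0.92 and 1.12 log2. Adsl, the lyase that acts in both the main path and the step to AMP, was at 73.8, 65.0, 77.8 and 35.0 CPM without stimulation, against 169, 162, 135 and 165 in the YFP- and 239, 192, 72.6 and 167 in the YFP+ fraction. It rose by 1.39 and 1.35 log2 (limma adjusted p = 0.0029 and 0.00245), with YFP+ m3 inside the unstimulated range. Reads of Ppat and Paics, which lie head to head, could not be told apart over 272 shared exon bases without strand, and 19.7% of Gart exon bases overlap an antisense gene at 0.0616 CPM.

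Paics and Atic, which also act before the ring is finished, were not called. Paics was at 117, 101, 89.2 and 56.4 CPM without stimulation, against 117, 102, 98.4 and 100.2 in the YFP- and 104, 86.9, 31.3 and 53.6 in the YFP+ fraction. The YFP- samples lay close together at or above 98.4 CPM, and the YFP+ samples spread over the widest range of the 3 groups. Its difference between YFP+ and YFP- was -0.74 log2 (95% interval -1.42 to -0.06; limma adjusted p = 0.113), and those against unstimulated samples were 0.25 in YFP- and -0.49 in YFP+ (limma adjusted p = 0.533 and 0.193). Leaving rRNA-like features out of the totals, or quantile normalization, brought the last of these to -0.68 and -0.61 (limma adjusted p = 0.0377 and 0.0418). Atic, which closes the ring in the final folate-linked step, was at 19.4 ± 2.88, 24.1 ± 3.32 and 19.9 ± 1.74 CPM in unstimulated, YFP- and YFP+ samples. Its difference in YFP-, 0.32 log2 (limma adjusted p = 0.083), was called only without m3 (0.49; limma adjusted p = 0.0152).

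After the ring is closed, one branch leads to AMP and the other to GMP, and the genes of the GMP branch behaved unequally. On the AMP branch, Adss, the adenylosuccinate synthetase, rose from 26.9, 26.7, 28.0 and 25.6 CPM to 45.5, 53.9, 38.3 and 44.3 in YFP- and 43.8, 41.5, 26.7 and 33.4 in YFP+ samples, by 0.75 and 0.41 log2. The YFP+ call (limma adjusted p = 0.0386) was lost without f2, m2 or m4 (limma adjusted p = 0.186, 0.161 and 0.118) and without rRNA-like features in the totals (0.22; limma adjusted p = 0.11). On the GMP branch, Gmps, the GMP synthetase, was at 36.3, 34.8, 33.3 and 22.4 CPM without stimulation, against 96.1, 103, 68.4 and 103 in the YFP- and 127, 110.4, 36.0 and 44.1 in the YFP+ fraction. It rose by 1.55 ± 0.35 log2 in YFP- (SE; limma adjusted p = 0.00233) and by 1.14 ± 0.35 in YFP+ (SE; limma adjusted p = 0.0119), where f2 and m2 were high and m3 and m4 close to the unstimulated level. The YFP+ call was lost without f2 or m2 (limma adjusted p = 0.0591 and 0.0685).

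Neither gene for IMP dehydrogenase, the enzyme that commits IMP to GMP, was called on the deposited scale, but Impdh1 was under several alternatives. Impdh2 was at 193 ± 24.8 CPM without stimulation, against 195 ± 14.3 in the YFP- and 193 ± 33.0 in the YFP+ fraction, and 39.3% of its 50-base words also occur in the pseudogene Impdh2-ps. Impdh1 was at 75.3, 69.7, 66.0 and 35.4 CPM without stimulation, against 38.6, 37.1, 35.1 and 36.1 in the YFP- and 50.0, 56.5, 17.8 and 33.5 in the YFP+ fraction, with unstimulated m4 as low as the YFP- samples. Its differences were -0.69 and -0.72 log2 (limma adjusted p = 0.0845 and 0.0649). They were called at -0.92 and -0.78 with quantile normalization (limma adjusted p = 0.00659 and 0.0147), and also without rRNA-like features in the totals (0.0146 and 0.00907). Without unstimulated m4 and YFP+ m3 they were -0.94 and -0.62 and both were called (limma adjusted p = 0.000448 and 0.00757). Both libraries were the lowest of their groups for Impdh1, so these last values are no independent support. Prpsap1, which encodes a protein that binds the phosphoribosyl pyrophosphate synthetases, was at 42.8, 23.1, 19.7 and 17.9 CPM without stimulation, against 34.2, 85.3, 53.4 and 53.8 in the YFP- and 24.3, 85.0, 17.2 and 26.7 in the YFP+ fraction, with wide overlap. Its call in YFP- (1.15 log2; limma adjusted p = 0.0409) was lost without m2, m3 or m4 (limma adjusted p = 0.0509, 0.106 and 0.188) and without unstimulated m4 and YFP+ m3 (0.0668). Likewise the fall of Prps2 in YFP- was not called without m2 or m4 (limma adjusted p = 0.0733 and 0.0659).

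Pyrimidine synthesis held the sharpest contrast between related genes, the pair of CTP synthases. Of its 5 genes, 4 rose and none fell in YFP-, 3 rose and 1 fell in YFP+, and 1 was higher and 1 lower in YFP+ than in YFP-. The rises were 80% and 60%, beside 30.2% and 27.5% of all genes, and the fall in YFP+ 20%, beside 33.3%. Between fractions each share was 20%, beside 3.28% higher and 18.5% lower. Ctps (ENSMUSG00000028633; GRCm38 chr4:120539868-120570276, minus strand) was at 6.45, 6.02, 7.25 and 4.04 CPM without stimulation, against 33.4, 60.9, 24.8 and 53.4 in the YFP- and 88.3, 60.1, 23.2 and 28.7 in the YFP+ fraction. All stimulated samples were above 23 CPM and all unstimulated ones at or below 7.25 CPM, and the fractions overlapped. The rises were 2.80 ± 0.40 and 2.90 ± 0.40 log2 (SE; 6.96- and 7.45-fold; limma adjusted p = 6.68e-05 and 2.53e-05). Between fractions the difference was 0.10 (95% interval -0.75 to 0.95).

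Ctps2 (ENSMUSG00000031360; GRCm38 chrX:162901238-163032508, plus strand) encodes the other CTP synthase. It was at 36.3, 34.5, 25.1 and 17.4 CPM without stimulation, against 29.5, 36.3, 22.6 and 23.9 in the YFP- and 11.6, 10.9, 2.98 and 4.39 in the YFP+ fraction. The YFP+ samples were all below the other 8, whereas the YFP- and unstimulated samples overlapped. Ctps2 fell by 2.11 ± 0.39 log2 in YFP+ against YFP- (4.31-fold lower; SE; limma adjusted p = 0.00185) and by 2.09 against unstimulated samples (limma adjusted p = 0.000395). It was the only 1 of the 32 members called lower between the fractions in this fit.

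The first enzymes of the pyrimidine pathway rose moderately. Cad (ENSMUSG00000013629; GRCm38 chr5:31054780-31078479, plus strand), the trifunctional protein of the first 3 steps, was at 20.9, 18.5, 26.9 and 16.6 CPM without stimulation, against 29.6, 26.9, 25.2 and 26.9 in the YFP- and 41.2, 41.9, 39.2 and 37.8 in the YFP+ fraction. The 4 YFP+ samples, between 37.8 and 41.9 CPM, stood above all others, while YFP- and unstimulated samples overlapped. Cad was higher by 0.97 ± 0.14 log2 in YFP+ than in unstimulated samples and by 0.56 ± 0.14 than in YFP- (SE; limma adjusted p = 5.48e-05 and 0.0136). The rise of 0.41 in YFP- (limma adjusted p = 0.0294) was lost under each change of scaling. It was 0.30 with trimmed-mean scaling, 0.27 with median centring and 0.24 with quantile normalization (limma adjusted p = 0.0683, 0.108 and 0.174). Without rRNA-like features in the totals it was 0.23 (limma adjusted p = 0.172). This rise was also not called with no filter (limma adjusted p = 0.0868). The same held without f2, m2 or m4 (limma adjusted p = 0.117, 0.147 and 0.167) and without unstimulated m4 and YFP+ m3 (0.0911). The difference between fractions was not called without f2 or m2 (limma adjusted p = 0.0536 and 0.0928).

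Dhodh, the dihydroorotate dehydrogenase of the mitochondrial inner membrane, rose from 19.7, 23.4, 21.5 and 17.0 CPM to 37.6, 30.2, 30.5 and 39.3 in YFP- and 47.1, 38.1, 23.4 and 37.8 in YFP+ samples. These rises were 0.75 and 0.81 log2, and the YFP- one was not called without m4 (0.60; limma adjusted p = 0.0752). Umps, which makes UMP, was at 54.6, 59.0, 62.4 and 43.0 CPM without stimulation, against 84.7, 76.5, 63.2 and 93.2 in the YFP- and 84.2, 75.3, 54.3 and 78.8 in the YFP+ fraction. Every YFP- sample was above every unstimulated one, and YFP+ m3 was within the unstimulated range. Umps rose by 0.54 log2 in YFP- (limma adjusted p = 0.0188), and its 0.41 in YFP+ missed the threshold (limma adjusted p = 0.0519). The first call was lost without f2, m2 or m4 (limma adjusted p = 0.0775, 0.0579 and 0.181), and the YFP+ difference was called without m3 (0.62; limma adjusted p = 0.00404) and with trimmed-mean scaling (0.49; limma adjusted p = 0.007).

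The 4 salvage genes moved in different directions, with 1 rise and 2 falls in YFP- and 2 rises and 2 falls in YFP+ against unstimulated samples. The rises were 25% and 50%, beside 30.2% and 27.5% of all genes. The falls were 50% in each, beside 20.9% and 33.3%. Dck (ENSMUSG00000029366; GRCm38 chr5:88764996-88783281, plus strand), the deoxycytidine kinase that starts the salvage of several deoxynucleosides, had the largest fall of the 32 members. It was at 13.1, 13.2, 13.6 and 13.5 CPM without stimulation, against 4.20, 3.10, 2.81 and 1.92 in the YFP- and 1.16, 2.10, 2.93 and 1.77 in the YFP+ fraction. The unstimulated samples lay close together and all 8 stimulated samples were far below them. Dck fell by 2.20 ± 0.27 log2 in YFP- and 2.81 ± 0.27 in YFP+ (SE; 4.60- and 7.03-fold lower; limma adjusted p = 2.34e-05 and 1.08e-06). Between fractions its -0.61 (95% interval -1.2 to -0.02) was not called (limma adjusted p = 0.13).

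Uck2, the uridine-cytidine kinase, rose from 29.9, 28.1, 28.3 and 22.8 CPM to 42.0, 54.7, 41.6 and 45.8 in YFP- and 40.1, 69.0, 41.9 and 50.8 in YFP+ samples, by 0.75 and 0.86 log2, with no overlap with unstimulated samples. The 2 genes for purine base transferases had small differences. Hprt, which salvages hypoxanthine and guanine, was at 192 ± 16.6 CPM without stimulation, against 160.1 ± 5.47 in the YFP- and 160.5 ± 7.4 in the YFP+ fraction. Its falls of 0.26 and 0.26 log2 (limma adjusted p = 0.0373 and 0.0334) were lost when any 1 of the 4 labels was left out (limma adjusted p from 0.065 to 0.172 in YFP- and from 0.0518 to 0.218 in YFP+). Median centring also ended the YFP+ call (-0.13; limma adjusted p = 0.274). Quantile normalization gave larger falls, -0.52 and -0.46 (limma adjusted p = 0.00049 and 0.000928), as did totals without rRNA-like features, -0.44 and -0.45 (limma adjusted p = 0.00103 and 0.00062).

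Aprt (ENSMUSG00000006589; GRCm38 chr8:122574635-122576909, minus strand), which salvages adenine, was at 161, 175, 167 and 149 CPM without stimulation, against 166, 150.2, 144 and 169 in the YFP- and 191, 186, 212 and 208 in the YFP+ fraction. Each YFP+ sample exceeded the other 8, while unstimulated and YFP- samples overlapped. Aprt was higher in YFP+ by 0.34 log2 than in YFP- and by 0.29 than in unstimulated samples (limma adjusted p = 0.0277 and 0.0229). The first call was lost when any 1 label was left out (limma adjusted p from 0.068 to 0.133), and the second without f2, m3 or m4 (limma adjusted p = 0.0679, 0.0592 and 0.147). Without unstimulated m4 and YFP+ m3 they gave limma adjusted p of 0.0513 and 0.107, at 0.31 and 0.22 log2. Scaling moved both: the difference from unstimulated samples was 0.11 with quantile normalization and 0.10 without rRNA-like features in the totals (limma adjusted p = 0.435 and 0.458), and that from YFP- was 0.60 with median centring (limma adjusted p = 0.00337).

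Among the 4 nucleotide kinases, 1 rose in YFP- and 3 rose in YFP+ against unstimulated samples. As shares these were 25% and 75%, beside 30.2% and 27.5% of all genes. Guk1 (ENSMUSG00000020444; GRCm38 chr11:59183875-59192212, minus strand), the guanylate kinase, was at 53.0, 53.9, 51.6 and 48.0 CPM without stimulation, against 68.3, 70.5, 72.2 and 78.7 in the YFP- and 97.1, 94.9, 93.8 and 106 in the YFP+ fraction. The 3 groups did not overlap and followed one order, with small spread within each. Guk1 rose by 0.49 ± 0.10 log2 in YFP- and 0.92 ± 0.10 in YFP+ (SE; limma adjusted p = 0.00122 and 3.1e-06), and the step between fractions was 0.44 (limma adjusted p = 0.0071). That step was not called without f2 or m2 (limma adjusted p = 0.0532 and 0.0614), and the YFP- rise was not called with quantile normalization (0.26; limma adjusted p = 0.0949). With median centring the step between fractions was 0.70 (limma adjusted p = 0.00148). Cmpk1, the UMP-CMP kinase, was at 36.6 ± 5.31, 41.5 ± 3.47 and 33.2 ± 7.13 CPM (mean ± SD, n = 4) in unstimulated, YFP- and YFP+ samples and was not called.

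Nme1 and Nme2, neighbouring genes for nucleoside diphosphate kinases, rose in YFP+ against unstimulated samples. Nme1 was at 79.4, 126, 111 and 75.1 CPM without stimulation, against 116, 106, 104 and 137 in the YFP- and 121, 155, 186 and 173 in the YFP+ fraction. Nme2 was at 6.64, 5.84, 8.74 and 6.07, 8.31, 7.09, 8.43 and 11.3 and 10.7, 10.9, 15.1 and 10.7 CPM in the same order. For Nme2 the YFP+ samples were above the unstimulated ones without overlap, and for Nme1 the f2 sample of YFP+ was below m2 of the unstimulated group. The rises in YFP+ were 0.71 and 0.80 log2 (limma adjusted p = 0.00422 and 0.00217). Between fractions the differences were 0.45 and 0.44 (limma adjusted p = 0.105 and 0.117), and they were called with trimmed-mean scaling at 0.64 and 0.63 (limma adjusted p = 0.024 and 0.0434). In YFP-, Nme2 at 0.36 log2 (limma adjusted p = 0.123) was called only without m3 (0.50; limma adjusted p = 0.0477). A read-through gene, Gm20390, with no reads of its own shares 48.9% of the exon bases of Nme2 and 12.5% of those of Nme1, so the level of Nme2 in particular is uncertain.

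The comparison of YFP+ with YFP- depends on how the libraries are scaled. Of all genes called in it, 15.1% were higher in YFP+ on the deposited scale. That share was 41.1% after trimmed-mean scaling, 44.9% after quantile normalization and 50.2% after median centring, and the median of all genes moved from -0.19 to 0.00, 0.06 and 0.07. The members called higher numbered 4, 6, 5 and 7 in the same order, and the members called lower numbered 1 each time. Relative to the median of all genes the members' median was higher by 0.20 on the deposited scale, and under each scaling by the same amount except quantile normalization, where it was 0.08. Against unstimulated samples the gap on the deposited scale was 0.47 for YFP- and 0.83 for YFP+. There the share of all calls that were higher was 59.1% in YFP- and 45.2% in YFP+, and without rRNA-like features in the totals it was 47.1% and 36.8%, with 16 members higher and 4 lower in YFP- and 18 and 7 in YFP+. Leaving out f2 or m2 left Aldh1l2 as the 1 member called higher between the fractions, and without it none.

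Ratios between related enzymes within a library do not depend on its scaling, and 7 pairs were compared in the 3 comparisons. A 2-sided exact permutation test over 70 splits cannot give a p below 0.0286, and 13 of the 21 tests reached it (Benjamini-Hochberg adjusted p = 0.0462 over 21 tests). That adjusted p rests on how many tests reached the smallest p together. The tests share samples and genes, so they are not independent. A sign-flip test on differences within labels gave each of the 13 a p of 0.125, the smallest it can give with 4 labels. The log2 ratio of Ctps to Ctps2 was -2.49, -2.51, -1.79 and -2.10 without stimulation, against 0.18, 0.75, 0.14 and 1.16 in the YFP- and 2.92, 2.46, 2.95 and 2.7 in the YFP+ fraction. These 3 sets did not overlap: Ctps2 had the more reads in unstimulated samples and Ctps in all stimulated ones. The ratio rose by 2.78 in YFP- and 4.98 in YFP+, a step of 2.21 between fractions, each at the smallest p.

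The serine hydroxymethyltransferases shifted towards the mitochondrial form. The log2 ratio of Shmt1 to Shmt2 was -3.5, -3.08, -3.04 and -3.18 without stimulation, against -4.81, -4.98, -4.61 and -4.58 in the YFP- and -4.44, -4.45, -4.38 and -4.13 in the YFP+ fraction. It fell by 1.55 in YFP- and by 1.15 in YFP+ against unstimulated samples, and was higher by 0.39 in YFP+ than in YFP-, again without overlap and each at the smallest p. Mthfd2 rose over Mthfd1 by 1.94 and 1.89, and Mthfd1 over Mthfd1l by 0.73 and 0.81, all at the smallest p, with differences of -0.05 and 0.09 between fractions that did not pass (exact p = 0.686 and 0.886).

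The ratio of Prps1 to Prps2 was 0.66, -0.36, 0.22 and -0.85 without stimulation, against 1.77, 1.5, 1.40 and 1.76 in the YFP- and 2.35, 2.12, 0.71 and 1.82 in the YFP+ fraction. It rose by 1.69 and 1.83, without overlap. For Impdh1 to Impdh2 the ratio fell by 0.71 in YFP- (exact p = 0.0286), and the -0.71 of YFP+ did not pass (exact p = 0.0571; adjusted p = 0.0857). Nme1 to Nme2 showed differences between -0.09 and 0.01, none passing (exact p from 0.771 to 0.886). With 1 label left out the exact test cannot give less than 0.1, so those values carry no call.

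**Figure D4:**
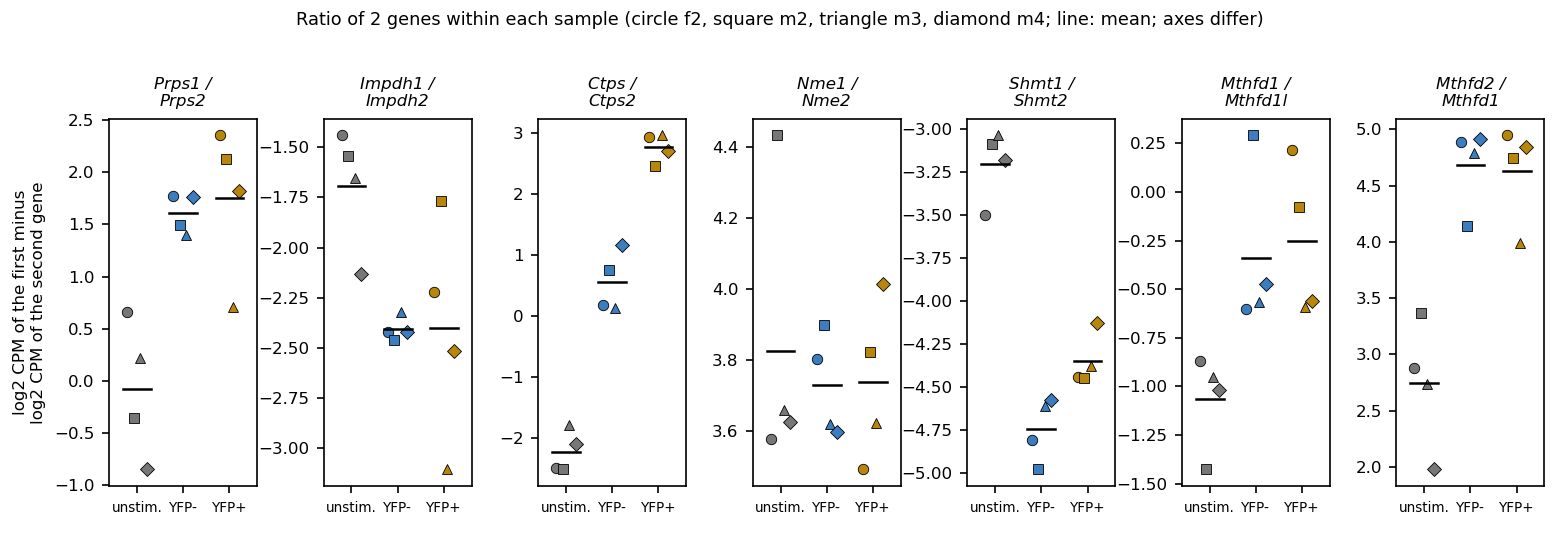
Each panel plots the log2 CPM of 1 gene minus that of its partner (vertical axis, scale differing between panels) in the 4 samples of each group (horizontal axis), with a line for the mean. The Ctps to Ctps2 and Shmt1 to Shmt2 ratios separate all 3 groups, and Prps1 to Prps2 and Mthfd2 to Mthfd1 separate stimulated from unstimulated samples.

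Apart from the pair ratios, which carry no correction for exon length, levels of different genes were compared per kb of exon. In unstimulated samples Hprt had the highest level, 149 ± 12.9 CPM per kb (mean ± SD, n = 4), followed by Aprt at 101 ± 6.72, Impdh2 at 62.6 ± 8.07 and Shmt2 at 52.0 ± 14.9. Hprt and Aprt differed beyond their spread, whereas Impdh2 and Shmt2 did not. Nme1, Paics, Guk1 and Mthfd2 came next, between 28.0 ± 9.45 and 29.3 ± 7.4, and did not differ beyond their spread. In YFP- samples Shmt2 at 236 ± 40.4 and Mthfd2 at 203 ± 28.4 CPM per kb led, above Hprt at 124 ± 4.24 and Aprt at 97.4 ± 7.49. In YFP+ samples the same pair led at 258 ± 107 and 231 ± 90.8, with a spread that did not separate them from each other, and Hprt and Aprt were at 124 ± 5.74 and 123 ± 8.02. In YFP+ m3 that order did not hold: Shmt2 and Mthfd2 were at 115 and 116 CPM per kb, below Hprt at 121 and Aprt at 131. The lowest member was Aldh1l2 in every group, at 0.0159 ± 0.00996, 0.125 ± 0.035 and 0.436 ± 0.0754 CPM per kb, and in both stimulated groups Dck was next at 0.795 ± 0.249 and 0.527 ± 0.194.

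Neighbouring steps of metabolism were read from 8 lists of 119 further genes, of which 91 were tested. Genes named are the largest called rise and the largest called fall of each list among those averaging a log2 CPM of at least 2. Over the 91 tested, 36 rose and 17 fell in YFP- and 39 rose and 31 fell in YFP+ against unstimulated samples, and 7 were higher and 17 lower in YFP+ than in YFP-. As shares these were 39.6% and 18.7%, 42.9% and 34.1%, and 7.69% and 18.7%, beside 30.2% and 20.9%, 27.5% and 33.3%, and 3.28% and 18.5% of all genes. The shares of falls were thus near those of all genes in each comparison. Most genes that supply serine and glycine rose: of 9 tested, 7 rose and 1 fell in YFP-, 7 rose and 2 fell in YFP+, and 1 was higher and 1 lower between fractions. Slc1a4, a neutral amino acid transporter, rose most, by 2.85 and 3.30 log2. Psph, the last enzyme of serine synthesis, was higher in YFP+ than in YFP- by 0.85 (limma adjusted p = 0.000613). In the methionine cycle 7 of 13 rose and none fell in YFP-, and 8 rose and 1 fell in YFP+, led by Mat2a, which makes S-adenosylmethionine, at 2.18 and 1.88 log2. Ahcy, which breaks down S-adenosylhomocysteine, fell by 0.69 in YFP+. Between the fractions 3 were higher, with Ahcyl1 at 0.71.

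The list of deoxynucleotide supply went the other way, together with the member Dck. Of its 14 genes, 2 rose and 8 fell in YFP-, 2 rose and 9 fell in YFP+, and 7 were lower and none higher in YFP+ than in YFP-. Tk1, the cytosolic thymidine kinase, had the largest fall, at -2.23 and -3.70 log2. Between the fractions the largest fall was that of Samhd1, which breaks down deoxynucleotides, by 1.65 (limma adjusted p = 0.00251). Dctd, the dCMP deaminase, had the largest rise, 1.09 and 1.1. The falls were 57.1%, 64.3% and 50.0% of the list, beside 20.9%, 33.3% and 18.5% of all genes, and the median log2 differences were -0.77, -1.53 and -0.50, beside 0.14, -0.03 and -0.19.

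Folate uptake and handling had 5 rises and no falls of 11 tested in YFP- and 6 rises and 3 falls in YFP+. The falls in YFP+ were 27.3% of the list, beside 33.3% of all genes. As shares of the list the rises were 45.5% and 54.5%, beside 30.2% and 27.5% of all genes. Its largest rise was Slc19a1, the reduced folate carrier, at 2.21 and 1.97 log2. Ggh, which removes glutamates from folates, fell by 0.62 against unstimulated and 0.63 against YFP- samples. Purine breakdown and interconversion (23 tested) had 9 rises and 5 falls in YFP-, 9 and 10 in YFP+, and 2 and 5 between fractions. Its falls, 21.7% in YFP- and between fractions, were near the 20.9% and 18.5% of all genes. In YFP+ its falls were 43.5%, beside 33.3%. The rises were 39.1% in each comparison with unstimulated samples, beside 30.2% and 27.5%. Nt5e, the ecto-nucleotidase CD73, rose most in YFP-, by 1.81, and fell most between fractions, by 1.38, while Xdh fell by 1.31 in YFP-, Nt5c3b by 2.43 in YFP+, and Nme6 rose by 1.24 in YFP+ and 0.91 between fractions. Pyrimidine salvage and breakdown (7 tested) had 3 rises and no falls in YFP-, 4 and 1 in YFP+, and no rise and 1 fall between fractions. The falls in YFP+ and between fractions were 14.3%, beside 33.3% and 18.5% of all genes. As shares of this list the rises were 42.9% and 57.1%, beside 30.2% and 27.5%. Its uridine phosphorylase Upp1 rose by 1.42 in YFP- and was lower by 0.97 in YFP+ than in YFP-, and in YFP+ Uprt rose by 0.70 and Uckl1 fell by 0.54.

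Nucleoside transporters (5 tested) had 2 rises and 1 fall in YFP-, 2 and 2 in YFP+, and 1 rise between fractions. The rises were 40% in each comparison with unstimulated samples, beside 30.2% and 27.5% of all genes. The falls were 20% and 40%, near the 20.9% and 33.3% of all genes. Slc29a3 rose by 0.58 and 1.2 and was higher by 0.62 in YFP+ than in YFP-, and Slc28a2 fell by 1.19 in YFP+. The pentose phosphate pathway, which supplies ribose 5-phosphate, had 1 rise and 2 falls of 9 tested in YFP-, 1 and 3 in YFP+, and 1 fall between fractions. Its falls, 22.2% and 33.3% of the list, were near the 20.9% and 33.3% of all genes, and its rises were 11.1% beside 30.2% and 27.5%. Between fractions its falls were 11.1% beside 18.5%. In this list Rpe rose by 1.09 and 0.95, H6pd fell by 1.18 and 1.27, and Rbks was lower by 0.76 in YFP+ than in YFP-. The counts between the fractions in all these lists carry the dependence on scaling given above.

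**Figure D5:**
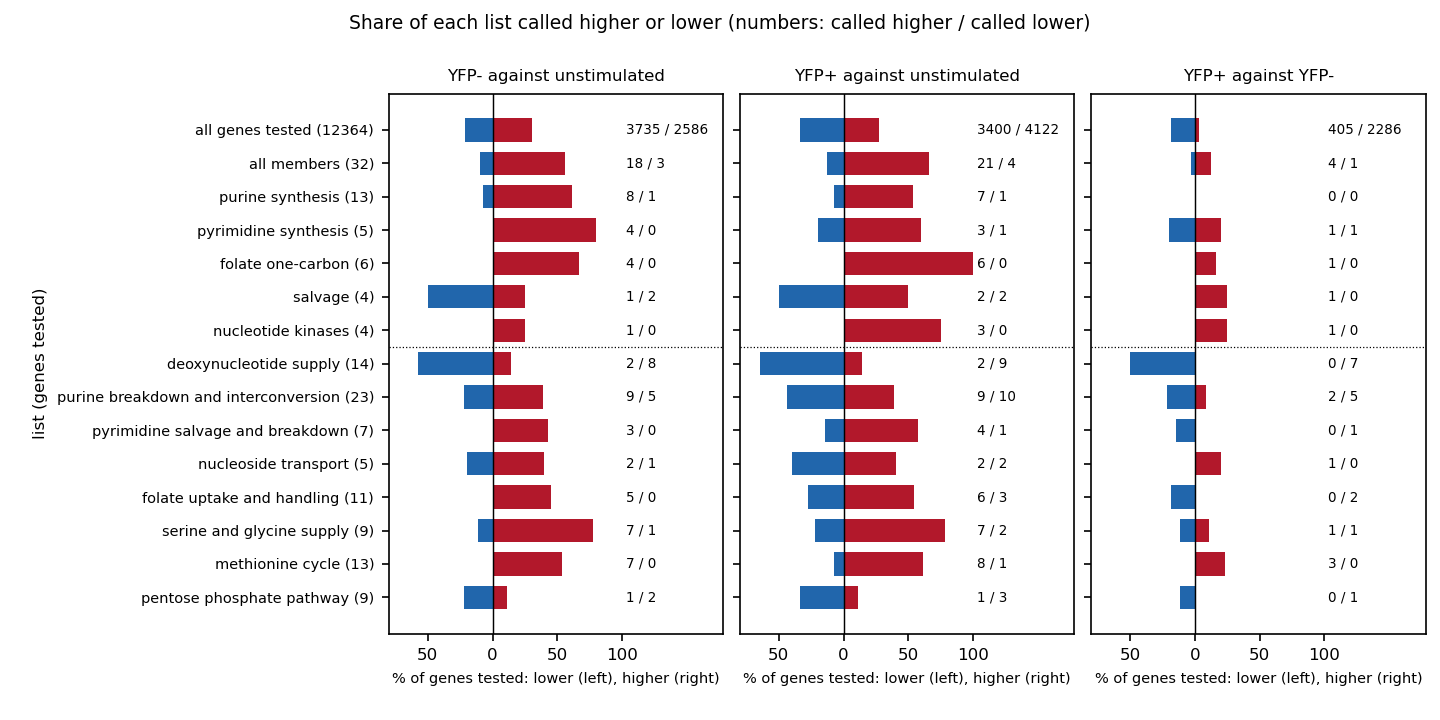
Bars give the percent of the tested genes of each list (vertical axis, with the number tested) called higher (red, right) or lower (blue, left) in the 3 comparisons, and the numbers at the right are the calls. One-carbon and serine lists lie mostly to the right in both comparisons with unstimulated cells, deoxynucleotide supply mostly to the left in all 3, and purine synthesis has no call between the fractions.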

How the data were processed

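RNA-seq values of 12 samples in 3 groups of 4 were analysed. The deposited table holds moderated log2 CPM for 55487 features after 287 repeated lines were dropped. Per the submitters' processing notes, STAR 2.7.9a, featureCounts 2.0.3 and GRCm38 were used; whether counting used strand is not given in the sources used here. A prior of 0.5 reads reproduced whole reads for 100% of values within 0.01 reads, so totals and CPM were recovered from the table. Differences were fitted with limma 3.58.1 (R 4.3.3, trend on mean level) over all 3 groups on the log2 CPM, for the 12364 genes above 0 in at least 4 samples, with Benjamini-Hochberg adjustment over all of them and a threshold of 0.05. The procedure was tested on simulated data. Every member is named; of other genes, the largest called rise and fall of each list are. Pair ratios were compared with exact permutation tests. The alternatives, 15 in number, changed the filter, pseudocount, scaling, weights, block or samples, and their effect is given in the closing section. The fit without unstimulated m4 and YFP+ m3 was not planned and was added after the members were seen. Gene positions are from GENCODE M21. The members and lists were chosen with earlier results of these data known. Values under 3 reads are limited by counting.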

Additional observations from a re-analysis of the deposited data

Results flagged for a closer look

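Of the 96 sets of 4 samples (32 members in 3 groups), 9 held a highest or lowest sample whose gap to its nearest neighbour took more of the range of the set than Dixon's 95% critical value for 4 samples, where chance alone gives about 4.8. The unstimulated m4 library was the low value for Mthfd2 (gap of 0.947 of the range; log2 CPM 5.60 against 6.80 to 6.87 in the other 3), Impdh2 (0.918; 7.28 against 7.66 to 7.70) and Shmt2 (0.886; 6.54 against 7.46 to 7.58). The YFP+ m3 library was the low value for Gart (0.858; log2 CPM 4.88 against 5.72 to 5.85) and Shmt1 (0.82903, just above the critical value; 4.11 against 5.44 to 5.71) and the high value for Nme2 (0.943; 3.92 against 3.42 to 3.45). The other 3 sets were Mthfd1l in YFP+ with f2 low (0.899; log2 CPM 4.99 against 5.23 to 5.25), Mthfd2 in YFP- with m3 low (0.866; 9.13 against 9.54 to 9.61) and Prps2 in YFP- with f2 low (0.847; 3.93 against 4.07 to 4.09).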

How the results depend on the processing

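Of 70 member differences described, 39 kept their direction and side of the threshold under each of the 15 alternatives run on them; of 1047 recomputed values, 940 did so, 72 lost and 31 gained a call, and 4 reversed. Those 4 were uncalled differences of YFP+ against YFP-: Ctps, 0.10, ran from -0.34 (without f2) to 0.43 when single labels were left out, Mthfd2 from -0.074 (without f2) to 0.29, and Shmt2 from -0.12 (without f2; -0.04 without m2) to 0.25. The 70 leave out uncalled differences given no value above. Over all 96 member differences, the 45 uncalled ones held 675 recomputed values, some of them among the 1047. Of these 675, 65 took the other sign and 35 were called. Members lower in YFP- against unstimulated samples numbered 5 with quantile normalization and 1 to 2 with a label left out, and members lower in YFP+ against unstimulated samples 7 with rRNA-like features out of the totals. For YFP+ against YFP-, rRNA-like features out of the totals gave 2 members lower. Median centring gave 7 higher with a median over members of 0.27, and trimmed-mean scaling a median of 0.20. Leaving out a label gave 1 to 3 higher, and 1571 to 2178 genes called over all genes, against 1583 with no filter on low values and 2691 as reported. The Ctps to Ctps2 ratio rose by 4.61 in YFP+ against unstimulated samples with 1 CPM added. Fits with a label left out hold fewer samples, and the fit with no filter tests more genes. Counts moved both ways. Members higher in YFP- against unstimulated samples, 18 as reported, numbered 21 without m3, 14 without m4, and 15 without m2 or with no filter. Without m4 the median over members there was 0.40, beside 0.11 over all genes. Members higher in YFP+ against unstimulated samples, 21 as reported, numbered 16 without f2, and 17 without m4 or with no filter. The cause of the changes in counts and values was not tested. Deviations of samples from their group means correlated between same-label samples at a mean of 0.026, 0.141 and 0.238 in the 3 comparisons. Not every sample's deviations correlated best with those of its own label, and the labels state no shared animal. With the label as a replicate block, 2 members were lower between the fractions, as Paics at -0.74 was called (limma adjusted p = 0.0413). The block also called Impdh1 in YFP- and YFP+ against unstimulated samples (limma adjusted p = 0.0465 and 0.0343), ended the calls of Hprt in YFP- (0.0509) and Mthfd1l in YFP+ (0.0643), and changed no other call among the 70. Depth limits Aldh1l2, with 2 to 9 reads in unstimulated libraries.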
